A study of Mus musculus with 10 samples.

Results

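The genes described here encode the eukaryotic translation initiation factors eIF1 to eIF6. They were taken by name from the gene table: every gene whose symbol begins with *Eif1* to *Eif6* and whose listed type includes protein coding, without the *Eif2ak* kinases and the genes named as pseudogenes. Of the 55359 genes in the table, 69 met this rule, with 21 for eIF1, 11 for eIF2, 14 for eIF3, 18 for eIF4, 4 for eIF5 and 1 for eIF6. In 28 of them protein coding was the only type listed, and in 41 it stood among several. The rule used no measured value.

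RNA was sequenced from C2C12 cells, a mouse myoblast line that fuses into myotubes when serum is withdrawn. One group of 5 libraries, si-Control, received a scrambled siRNA, and the other group of 5, si-Fndc1, an siRNA against *Fndc1*, which encodes a secreted protein with fibronectin type III domains. In both groups the cells were grown in 20% fetal bovine serum, transfected with 100 nM siRNA, and, per the sample labels, collected after 4 days in 2% horse serum; the series description gives instead a time counted from transfection. Both groups are the same cell line, the knockdown is transient, nothing in the labels says that the 5 libraries of a group came from separate cultures, and the p-values below measure only the spread between these libraries. In bulk RNA of this kind, fewer cells of a type and less RNA per cell cannot be told apart.

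Most eukaryotic mRNAs are translated after the cap at their 5′ end has been bound by eIF4E, which joins the scaffold eIF4G and the RNA helicase eIF4A in the complex eIF4F. The small ribosomal subunit, carrying eIF1, eIF1A, eIF3, eIF5 and the initiator tRNA held by eIF2, is recruited through eIF3 and eIF4G and scans to the start codon, where eIF5B helps the large subunit to join. In muscle, insulin-like growth factor and mTOR signalling act on this step through the 4E-BP proteins, which hold eIF4E away from eIF4G, and myotube growth depends on it.

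Total counts were 66771605 to 75995168 per si-Control library and 56332844 to 72839369 per si-Fndc1 library. The targeted gene *Fndc1* was at 24.7 to 29.6 FPKM (a fragment count scaled by transcript length and sequencing depth) in si-Control and at 18.7 to 23.5 FPKM in si-Fndc1, without overlap, and its log2 fold change was -0.40 (SE 0.07, adjusted p = 0.000934 by the edgeR quasi-likelihood test, adjusted after Benjamini and Hochberg). With an offset for GC content and length, described below, it was -0.21 (edgeR adjusted p = 0.0128). All 8 muscle markers examined were present in both groups, at mean levels between 44.3 and 1938 FPKM, and 3 of them were called higher in si-Fndc1 (*Ckm*, log2 fold change 0.39, *Mymk*, 0.26, and *Myod1*, 0.16), 5 not called; their part in the results below was not tested. Of 14 liver markers, 13 passed the filter on low values and all 13 were called higher in si-Fndc1, with a median log2 fold change of 5.86. All of them but *Alb* had a si-Control mean under 0.5 FPKM and passed only through si-Fndc1, so the filter itself set their direction. The summed level of the 14 was 0.0766 to 6.29 FPKM in si-Control and 51.4 to 185 FPKM in si-Fndc1. Markers of endothelium and fat were at or near 0 in both groups (summed levels of at most 0.0334 and 0.0199 FPKM), the leukocyte gene *Ptprc* was listed at 0 in every library, and the 4 blood markers summed to 0.700 to 1.85 FPKM in the controls and 1.32 to 2.61 FPKM after knockdown. The liver markers thus moved with the same contrast as every result below, and their part in those results was not tested.

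Over all 58 initiation factor genes that passed the filter, a mean of at least 0.5 FPKM over the 10 libraries, the median log2 fold change was 0.08, beside 0.00 over all 13548 genes tested. A gene is said to be called when its adjusted p by edgeR was under 0.05. By this measure 18 initiation factor genes rose in si-Fndc1 (31.0%, beside 17.3% of all tested genes) and 11 fell (19.0%, beside 17.2%). In all, 29 of 58 were called (50%, beside 34.4%). Over these 58 genes the share that fell was thus close to that of all genes, and the share that rose was above it. Without the numbered *Eif1ad* copies described below, 15 of 48 tested genes rose (31.25%, beside 17.3%) and 11 fell (22.9%, beside 17.2%). Whether these shares differ from those of all genes was not tested. Those 48 genes had a median level of 25.5 FPKM, beside 5.20 FPKM over all tested genes. The part of level in these shares was not tested. Without overlap of FPKM between the groups were 11 genes that were higher (19.0%, beside 12.1% of all tested genes) and 8 that were lower (13.8%, beside 13.0%), 19 in all (32.8%, beside 25.1%). The log2 fold changes of called genes ran from -0.28 to 0.73.

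**Figure D1:**
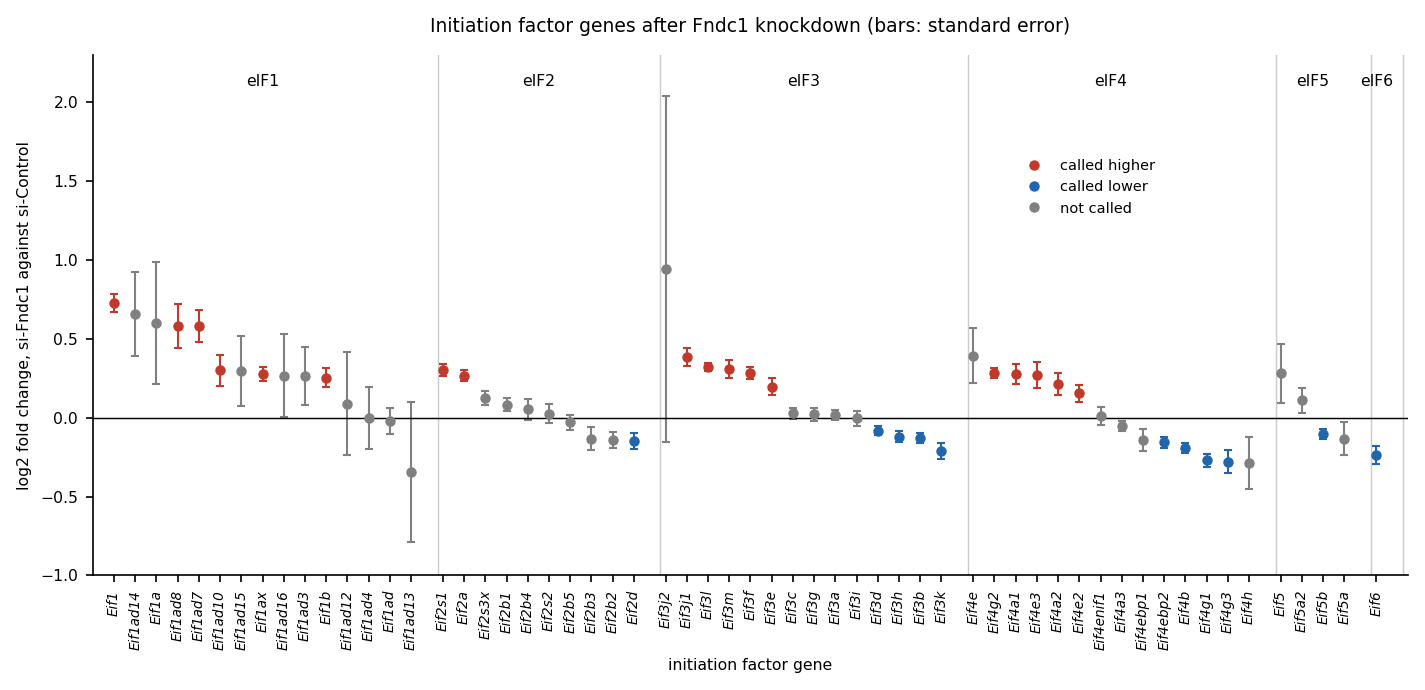
Log2 fold change of the 58 tested initiation factor genes, si-Fndc1 against si-Control, with bars of 1 standard error, grouped by factor and coloured by the edgeR call. *Eif1* stands highest among the called genes at 0.73, eIF3 and eIF4 hold genes called in both directions, and *Eif3j2* has the widest bar (SE 1.10).

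By factor, the calls fell as follows, to be read beside 17.3% higher and 17.2% lower among all tested genes. In eIF1, 6 of 15 tested genes rose (40%) and 0 fell in edgeR, in DESeq2 and in limma, with 0 lower at an unadjusted p under 0.05. In eIF2, 2 of 10 rose (20%) and 1 fell (10%), near the shares of all genes. In eIF3, 5 of 14 rose (35.7%) and 4 fell (28.6%), and in eIF4, 5 of 14 rose (35.7%) and 4 fell (28.6%). In eIF5, 1 of 4 fell (25%), and the single eIF6 gene fell. Whether the factors differed from each other in these shares was not tested. The summed level of all 69 genes had a mean of 1874 ± 56.2 FPKM (SD, n = 5) in the control libraries and of 1962 ± 47.3 FPKM (SD, n = 5) after knockdown, and the sums overlapped, with 1834 to 1973 against 1888 to 2013 FPKM. Over all tested genes the summed FPKM was higher after knockdown too, at 306456 ± 7662 against 338688 ± 9417. The sum rose most for eIF1, from 200.4 ± 12.7 to 291 ± 19.9 FPKM, and for the other factors it moved by less.

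*Eif1* had the largest fold change of all called initiation factor genes. It encodes eIF1, which keeps the scanning ribosome open and guards the choice of start codon, and it lies on chr11:100210711-100212922 (plus strand, GRCm39). Its level was 95.5, 109.6, 89.7, 94.7 and 92.3 FPKM in si-Control replicates 1 to 5 and 156, 154, 162, 169.8 and 151 FPKM in si-Fndc1 replicates 1 to 5. Every si-Fndc1 library lay far above every si-Control library. The mean moved from 96.4 ± 7.74 to 159 ± 7.30 FPKM (SD, n = 5 each), a log2 fold change of 0.73 (SE 0.06, edgeR adjusted p = 1.8e-05). A processed copy listed as a pseudogene, *Eif1-ps1*, also rose, with 4.02 to 6.93 FPKM in the controls and 10.3 to 12.9 FPKM after knockdown (log2 fold change 1.10, SE 0.14, edgeR adjusted p = 0.000226), and since the copies are near-identical, how reads were divided between them is uncertain.

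The close paralogue *Eif1b* and the eIF1A gene *Eif1ax*, whose product works with eIF1 on the scanning ribosome, also rose. For *Eif1b* the range was 14.6 to 16.5 FPKM in si-Control and 16.4 to 19.1 FPKM in si-Fndc1, so that the groups overlapped slightly (log2 fold change 0.25, SE 0.06, edgeR adjusted p = 0.00616). For *Eif1ax* it was 19.1 to 20.8 FPKM against 22.5 to 25.0 FPKM, without overlap (log2 fold change 0.28, SE 0.04, edgeR adjusted p = 0.000666). *Eif1ad*, which encodes a protein with an eIF1A-like domain, was at 8.94 ± 0.675 and 8.76 ± 0.959 FPKM (SD, n = 5 each) and was not called (log2 fold change -0.02, SE 0.08).

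The second eIF1A gene, *Eif1a*, did not behave as 1 group of libraries. Its level was 25.9, 9.72, 25.7, 8.95 and 27.2 FPKM in si-Control and 33.7, 11.3, 32.7, 34.4 and 35.2 FPKM in si-Fndc1. Replicates 2 and 4 of si-Control and replicate 2 of si-Fndc1 were thus far below the other 7 libraries. Its log2 fold change of 0.60 (SE 0.39) did not pass the test (edgeR adjusted p = 0.259), nor did it with any 1 library left out.

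A run of 16 numbered *Eif1ad* copies lies on chromosome 12, all of them with an eIF1A-like domain by name. Of these, 10 passed the filter, 3 rose (*Eif1ad7*, *Eif1ad8* and *Eif1ad10*) and 0 fell in edgeR, DESeq2 or limma, with a median log2 fold change of 0.28. The rises made up 30%, beside 17.3% of all tested genes. *Eif1ad7* was at 9.48, 10.9, 7.97, 8.55 and 8.45 FPKM in si-Control and 13.9, 10.9, 13.4, 14.3 and 15.0 FPKM in si-Fndc1 (log2 fold change 0.58, SE 0.10, edgeR adjusted p = 0.0014). Si-Fndc1 replicate 2 stood close to si-Control replicate 2, and the other 4 were clearly higher. *Eif1ad8*, a gene of low level, was at 1.58, 1.26, 2.11, 1.52 and 1.55 FPKM in si-Control and 2.03, 2.53, 2.39, 2.35 and 2.66 FPKM in si-Fndc1 (log2 fold change 0.58, SE 0.14, edgeR adjusted p = 0.00769). The lowest si-Fndc1 library lay just under the highest si-Control library. *Eif1ad10* had a range of 15.1 to 21.5 against 19.9 to 23.0 FPKM (log2 fold change 0.30, edgeR adjusted p = 0.0388), and its call was lost on leaving out any 1 of 7 libraries, namely si-Control 3, 4 or 5 or si-Fndc1 1, 3, 4 or 5, with an adjusted p of at most 0.0873. The other 7 tested copies had mean levels of at most 6.43 FPKM in a group, and log2 fold changes from -0.35 to 0.65. Reads from copies this alike may have been assigned to one another, so the level of any 1 copy is uncertain. Without the run, 48 genes were tested, of which 15 rose (31.25%, beside 17.3% of all tested genes) and 11 fell (22.9%, beside 17.2%). Their median log2 fold change was 0.03.

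eIF2 brings the initiator tRNA, and its alpha subunit, encoded by *Eif2s1*, is the one whose phosphorylation slows translation under stress. *Eif2s1* was at 17.3, 18.1, 18.1, 17.2 and 16.8 FPKM in si-Control and 22.2, 20.4, 20.8, 21.2 and 22.6 FPKM in si-Fndc1, and the groups did not overlap (log2 fold change 0.30, SE 0.04, edgeR adjusted p = 0.000131). *Eif2s2*, the beta subunit gene, was at 30.4 ± 1.70 and 30.7 ± 2.67 FPKM (SD, n = 5 each) and was not called. The difference in fold change between these subunits of 1 complex was not tested.

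The gamma subunit has an X-linked and a Y-linked gene. *Eif2s3x* was at 88.5, 93.3, 79.8, 87.6 and 92.2 FPKM in si-Control and 95.3, 94.5, 98.9, 90.8 and 98.5 FPKM in si-Fndc1, and just missed the threshold (log2 fold change 0.12, SE 0.04, edgeR adjusted p = 0.0573). Of the Y-linked *Eif2s3y*, 8 libraries held 0 counts and the remaining libraries at most 4 counts, so the gene was at background and was not tested.

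*Eif2a*, which encodes an initiator tRNA-binding protein unrelated to the alpha subunit despite its name, rose from 8.13 ± 0.260 to 9.73 ± 0.306 FPKM (SD over n = 5; log2 fold change 0.27, SE 0.04, edgeR adjusted p = 0.000303), without overlap. *Eif2d*, whose product can also deliver tRNA and helps to recycle small subunits, fell from 4.25 ± 0.223 to 3.81 ± 0.140 FPKM (log2 fold change -0.15, SE 0.05, edgeR adjusted p = 0.0396). Its call was lost on leaving out any 1 library except si-Control replicate 4 or si-Fndc1 replicate 3, with an adjusted p of at most 0.0875. The 5 genes of eIF2B, the exchange factor that recharges eIF2 with GTP, gave 0 calls in edgeR, beside 34.4% of all tested genes. Whether so few genes differ from that share was not tested. The log2 fold changes of these 5 genes lay between -0.14 (*Eif2b2*, SE 0.05, edgeR adjusted p = 0.0553) and 0.08 (*Eif2b1*). *Eif2b2*, the only 1 with an unadjusted p under 0.05, was called lower by DESeq2, by limma at either pseudocount and with the filter at 5 FPKM. The summed eIF2B level was 80.3 ± 2.36 FPKM in the controls and 77.4 ± 0.791 FPKM after knockdown.

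eIF3 is the largest initiation factor, a complex of 13 subunits of which the lettered genes *Eif3a* to *Eif3m* each encode 1; it binds the small ribosomal subunit and bridges it to eIF4G. Its genes split in both directions. *Eif3l*, *Eif3m*, *Eif3f*, *Eif3e* and *Eif3j1* rose; *Eif3k*, *Eif3b*, *Eif3h* and *Eif3d* fell; *Eif3a*, *Eif3c*, *Eif3g* and *Eif3i* were not called, with log2 fold changes from -0.00 to 0.03. Between the groups there was no overlap for 4 of the 5 genes that rose, *Eif3e* being the exception, and for the 4 that fell. Most called genes showed this: 1616 of the 2338 genes called higher and 1685 of the 2325 called lower did not overlap. *Eif3l* and *Eif3k* are known to sit side by side at the edge of the complex, and they moved in opposite directions.

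**Figure D2:**
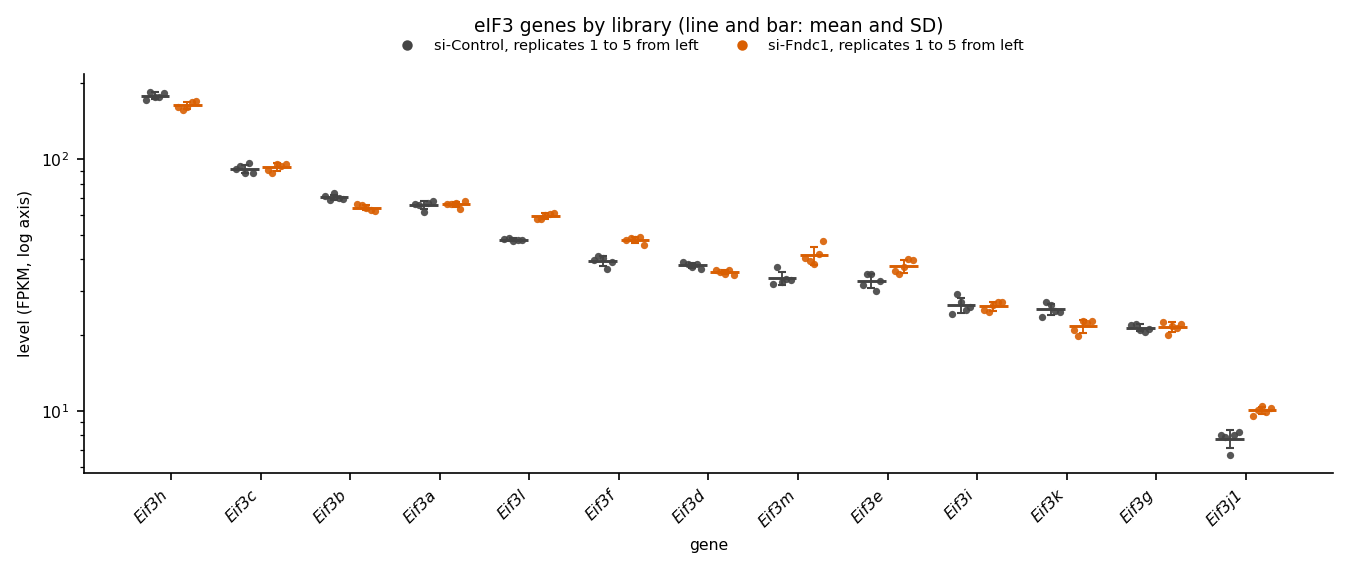
Level of 13 eIF3 genes in FPKM (log axis) in each library, with the group mean as a line and its SD as a bar; si-Control grey, si-Fndc1 orange, replicates 1 to 5 from left. *Eif3l*, *Eif3f* and *Eif3j1* are higher in every si-Fndc1 library, *Eif3h*, *Eif3b* and *Eif3k* lower in every one, and *Eif3a* and *Eif3c* overlap.

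*Eif3l* was at 48.2, 48.7, 47.1, 47.6 and 47.6 FPKM in si-Control and 58.1, 58.0, 59.8, 60.7 and 61.1 FPKM in si-Fndc1. Every si-Fndc1 library was higher by more than the whole range of the controls (log2 fold change 0.32, SE 0.03, edgeR adjusted p = 2.03e-05). *Eif3m* was at 31.9, 37.2, 32.6, 33.5 and 33.2 FPKM against 40.4, 39.4, 38.5, 41.9 and 47.2 FPKM (log2 fold change 0.31, SE 0.06, edgeR adjusted p = 0.00213). *Eif3f*, like *Eif3h* a subunit of the MPN fold, was at 39.7, 41.2, 40.5, 36.7 and 39.0 FPKM against 47.9, 48.4, 48.0, 48.8 and 45.4 FPKM (log2 fold change 0.28, SE 0.04, edgeR adjusted p = 0.000292). *Eif3f* is known from muscle as a target of the ubiquitin ligase atrogin-1 and a partner of mTOR. *Eif3e* rose less, from 32.9 ± 2.17 to 37.5 ± 2.22 FPKM (SD, n = 5 each), its groups overlapped (log2 fold change 0.20, SE 0.05, edgeR adjusted p = 0.0158), and its pseudogene copy *Eif3s6-ps2* also moved upward (log2 fold change 0.74, SE 0.15, edgeR adjusted p = 0.00294).

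*Eif3j1* encodes the loosely held subunit that reaches into the mRNA channel. It was at 8.00, 7.87, 6.69, 8.01 and 8.23 FPKM in si-Control and 9.56, 10.1, 10.4, 9.90 and 10.3 FPKM in si-Fndc1, and every si-Fndc1 library was higher (log2 fold change 0.38, SE 0.06, edgeR adjusted p = 0.000497). Its close copy *Eif3j2* was different: it was listed at 0 counts in si-Control replicates 1 and 5 and at 10.8, 11.9 and 11.4 FPKM (2034 to 2249 counts) in si-Control replicates 2, 3 and 4, and at 15.8, 13.8, 12.1, 11.4 and 12.0 FPKM (1778 to 2965 counts) in si-Fndc1. The 3 si-Control libraries with counts overlapped the si-Fndc1 range, and the test gave a log2 fold change of 0.94 with an SE of 1.10 (edgeR adjusted p = 0.545). In the 2 empty libraries *Eif3j1* was at 8.00 and 8.23 FPKM, near its other si-Control values.

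Of the genes that fell, *Eif3h* was the most abundant initiation factor gene on the FPKM scale. It was at 171, 185, 177, 176 and 183 FPKM in si-Control and 161, 157, 161, 168 and 171 FPKM in si-Fndc1; the highest si-Fndc1 library lay just under the lowest si-Control library (log2 fold change -0.12, SE 0.03, edgeR adjusted p = 0.0166). *Eif3k* was at 23.6, 27.0, 26.2, 24.8 and 24.8 FPKM against 20.9, 19.8, 22.7, 22.3 and 22.7 FPKM, without overlap (log2 fold change -0.21, SE 0.05, edgeR adjusted p = 0.0076). *Eif3b*, the core scaffold subunit with *Eif3a*, fell from 70.5 ± 1.74 to 64.1 ± 1.63 FPKM (SD over n = 5; log2 fold change -0.13, SE 0.03, edgeR adjusted p = 0.00635), without overlap. *Eif3d*, whose product can itself bind the cap of some mRNAs, fell from 37.9 ± 0.915 to 35.6 ± 0.725 FPKM (log2 fold change -0.08, SE 0.03, edgeR adjusted p = 0.0394). The *Eif3d* call was lost on leaving out any 1 of 7 libraries (si-Control 1, 2 or 4, or si-Fndc1 1, 2, 3 or 5), with an adjusted p of at most 0.0876.

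The summed level of the 14 eIF3 genes stayed close, at 686 FPKM in si-Control and 701 FPKM in si-Fndc1, while its makeup shifted. The 5 genes that rose, a set picked after their values were seen, made up 23.1 to 24.3% of the FPKM of the eIF3 genes other than *Eif3j2* in the controls and 28.2 to 28.9% after knockdown. These shares are a description and were not tested.

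The eIF4F scaffold genes *Eif4g1* and *Eif4g3* fell, while *Eif4g2*, a relative outside eIF4F, rose. *Eif4g1*, the main cap-dependent scaffold (chr16:20487063-20511634, plus strand, GRCm39), was at 70.5, 67.3, 67.8, 75.0 and 68.5 FPKM in si-Control and 59.0, 61.1, 57.3, 56.3 and 54.4 FPKM in si-Fndc1, lower in every library (log2 fold change -0.27, SE 0.04, edgeR adjusted p = 0.000643). *Eif4g3*, a second cap-dependent scaffold, was at 10.3, 8.71, 9.78, 10.8 and 9.92 FPKM against 8.20, 9.18, 7.45, 8.53 and 7.18 FPKM, with si-Control replicate 2 inside the si-Fndc1 range (log2 fold change -0.28, SE 0.07, edgeR adjusted p = 0.0143). *Eif4g2* (chr7:110666957-110682237, minus strand, GRCm39), also called DAP5, lacks the part that binds eIF4E and serves cap-independent initiation. It was at 67.1, 64.3, 65.2, 68.5 and 65.6 FPKM in si-Control and 80.0, 84.1, 77.9, 77.1 and 80.5 FPKM in si-Fndc1, higher in every library (log2 fold change 0.28, SE 0.03, edgeR adjusted p = 9.74e-05). Summed over the 3 genes, the level was 146 ± 5.45 FPKM in the controls and 146 ± 5.34 FPKM after knockdown (SD, n = 5), and the share of *Eif4g2* in it was 44.4 to 45.8% before and 54.3 to 56.7% after, a description with no test.

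**Figure D3:**
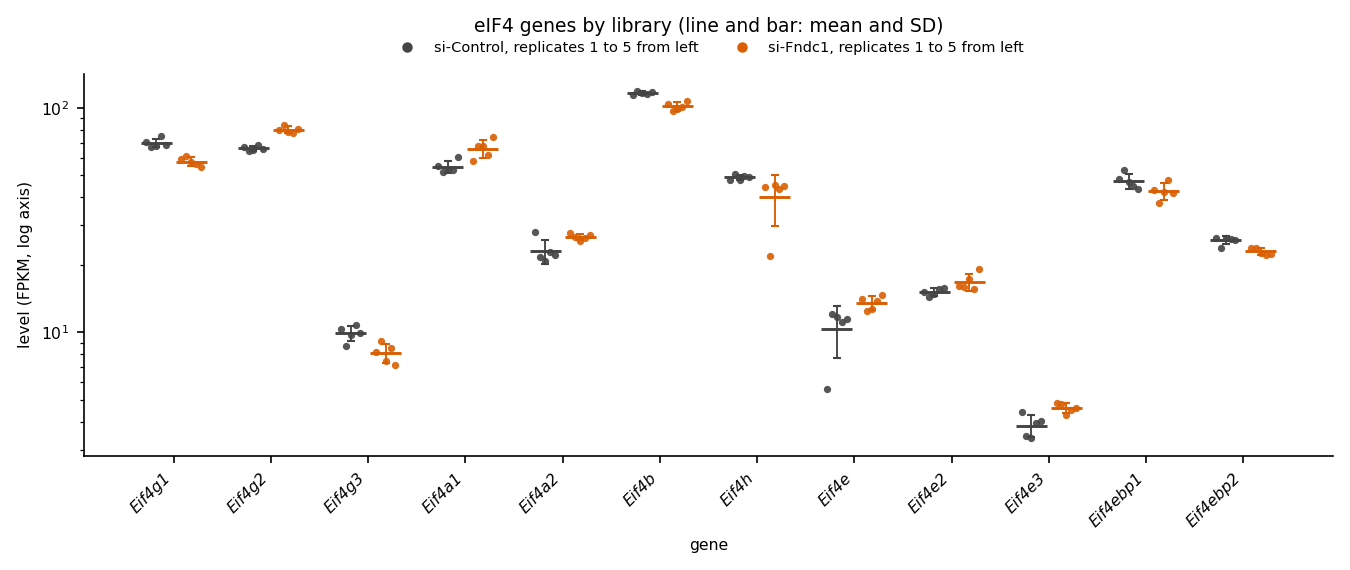
Level of 12 eIF4 genes in FPKM (log axis) in each library, with the group mean as a line and its SD as a bar; si-Control grey, si-Fndc1 orange, replicates 1 to 5 from left. *Eif4g1* and *Eif4b* are lower and *Eif4g2* higher in every si-Fndc1 library, while 1 library stands apart for *Eif4h* (21.9 FPKM) and for *Eif4e* (5.58 FPKM).

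Both helicase genes rose. *Eif4a1* was at 54.8, 51.8, 53.3, 53.0 and 60.3 FPKM in si-Control and 58.0, 67.8, 67.3, 61.8 and 74.4 FPKM in si-Fndc1, where replicate 1 alone fell inside the si-Control range (log2 fold change 0.28, SE 0.07, edgeR adjusted p = 0.00775). The near-identical copy *Eif4a-ps4*, listed as a pseudogene at a level as high as the gene itself, moved the same way, with 59.4 to 67.8 FPKM in the controls and 74.3 to 82.7 FPKM after knockdown (log2 fold change 0.31, SE 0.04, edgeR adjusted p = 0.000241), so reads of the 2 may be shared. *Eif4a2*, the isoform favoured in differentiated tissue, was at 27.9, 21.6, 20.9, 22.8 and 22.1 FPKM in si-Control and 27.6, 26.6, 25.5, 26.2 and 27.1 FPKM in si-Fndc1 (log2 fold change 0.21, SE 0.07, edgeR adjusted p = 0.037). Only si-Control replicate 1 was as high as the si-Fndc1 libraries; without it the log2 fold change was 0.29 (edgeR adjusted p = 0.000306), and without any other library except si-Fndc1 replicate 3 the call was lost, with an adjusted p of at most 0.0846. The share of *Eif4a1* in the sum of both was 70.4 ± 2.61% and 71.1 ± 2.22% (SD, n = 5 each) and overlapped. *Eif4a3*, a helicase of the exon junction complex and no part of eIF4F, was at 33.2 ± 0.945 and 31.9 ± 0.934 FPKM and was not called.

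Of the helicase cofactors, *Eif4b* fell and the call of *Eif4h* turned on 1 library. *Eif4b* was at 114, 119, 117, 115 and 117 FPKM in si-Control and 104, 96.3, 99.3, 101 and 108 FPKM in si-Fndc1, lower in every library (log2 fold change -0.19, SE 0.03, edgeR adjusted p = 0.000884). *Eif4h* was at 47.7, 50.8, 47.9, 50.0 and 49.4 FPKM against 44.4, 21.9, 45.4, 43.6 and 44.9 FPKM, lower in every library but with si-Fndc1 replicate 2 at a fraction of the rest. With that library the gene was not called (log2 fold change -0.29, SE 0.17, edgeR adjusted p = 0.207), and without it the log2 fold change was smaller and passed the threshold (-0.13, edgeR adjusted p = 0.00719).

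Of the 3 cap-binding genes tested, 2 rose (beside 17.3% of all tested genes), both with calls that rested on single libraries. *Eif4e* was at 5.58, 12.0, 11.7, 11.2 and 11.4 FPKM in si-Control and 14.1, 12.5, 12.8, 13.8 and 14.7 FPKM in si-Fndc1. The groups did not overlap, but si-Control replicate 1 lay far below the rest and the gene was not called (log2 fold change 0.39, SE 0.17, edgeR adjusted p = 0.104); without it the log2 fold change was 0.24 and passed the threshold (edgeR adjusted p = 0.0066). DESeq2 called it with all libraries (adjusted p = 0.039). *Eif4e2*, a cap-binding protein that mostly represses, was at 15.2, 14.4, 14.8, 15.7 and 15.8 FPKM against 16.0, 15.9, 17.3, 15.6 and 19.1 FPKM (log2 fold change 0.15, SE 0.05, edgeR adjusted p = 0.0498). This call stood at the threshold and was lost on leaving out any 1 library except si-Fndc1 replicates 1, 2 and 4, with an adjusted p of at most 0.105. *Eif4e3*, another cap-binding protein of the family, was at 4.42, 3.47, 3.37, 3.95 and 4.05 FPKM against 4.87, 4.81, 4.30, 4.52 and 4.63 FPKM (log2 fold change 0.27, SE 0.08, edgeR adjusted p = 0.0241), and its call was lost without si-Control 2, si-Control 3 or si-Fndc1 1 (adjusted p of at most 0.0553). *Eif4e1b*, a germline form, had 0 counts in every library. *Eif4enif1*, which carries eIF4E into the nucleus, was at 6.94 ± 0.461 and 6.94 ± 0.431 FPKM and was not called.

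The 4E-BP genes, whose products hold eIF4E inactive until mTOR phosphorylates them, did not move as 1 set: *Eif4ebp2* fell, *Eif4ebp1* was not called and *Eif4ebp3* was too low to test. *Eif4ebp2* was at 26.4, 23.8, 26.5, 26.1 and 25.9 FPKM in si-Control and 23.8, 23.9, 22.6, 22.1 and 22.4 FPKM in si-Fndc1; it was called lower (log2 fold change -0.16, SE 0.04, edgeR adjusted p = 0.00803), with si-Control replicate 2 inside the si-Fndc1 range. *Eif4ebp1* was at 48.1, 52.9, 47.0, 44.7 and 43.3 FPKM against 43.3, 37.6, 42.2, 48.0 and 41.9 FPKM, overlapped and was not called (log2 fold change -0.14, SE 0.07, edgeR adjusted p = 0.14). *Eif4ebp3* stayed under the filter, at 0.119 to 0.346 FPKM in si-Control and 0.263 to 1.43 FPKM in si-Fndc1 (8 to 21 against 16 to 86 counts), and it shares its locus with a longer read-through gene, *Maskbp3*.

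*Eif5*, which makes eIF2 hydrolyse its GTP at the start codon, had separate levels within each group. It was at 30.2, 28.5, 16.7, 32.0 and 19.6 FPKM in si-Control and 35.1, 35.7, 23.9, 25.8 and 33.0 FPKM in si-Fndc1. Replicates 3 and 5 of si-Control and 3 and 4 of si-Fndc1 were low, and the gene was not called (log2 fold change 0.28, SE 0.19, edgeR adjusted p = 0.273). *Eif5b*, for subunit joining, fell slightly, from 14.7 ± 0.416 to 13.7 ± 0.562 FPKM (SD over n = 5; log2 fold change -0.10, SE 0.03, edgeR adjusted p = 0.0322), and lost its call on leaving out any 1 of 6 libraries (si-Control 1, 4 or 5, or si-Fndc1 2, 3 or 4), with an adjusted p of at most 0.0827.

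*Eif5a* encodes the hypusinated factor that helps ribosomes past difficult peptide bonds. It was at 129.7, 197, 133, 139.6 and 146 FPKM in si-Control and 137, 135, 121, 142 and 139 FPKM in si-Fndc1, with si-Control replicate 2 above all others (log2 fold change -0.13, SE 0.10, edgeR adjusted p = 0.352). Without that library the log2 fold change was -0.01. Its paralogue *Eif5a2* was at 2.18, 1.94, 2.15, 2.17 and 2.04 FPKM against 2.33, 2.28, 2.12, 1.92 and 2.58 FPKM (log2 fold change 0.11, SE 0.08, edgeR adjusted p = 0.305) and made up 1.43 ± 0.269% and 1.64 ± 0.182% of the sum of both. *Eif6*, which keeps the large subunit from joining too early, was at 35.4, 37.7, 37.4, 32.0 and 35.4 FPKM in si-Control and 28.6, 27.5, 31.9, 29.9 and 32.1 FPKM in si-Fndc1; the highest si-Fndc1 library just passed the lowest si-Control library (log2 fold change -0.24, SE 0.06, edgeR adjusted p = 0.00821).

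**Figure D4:**
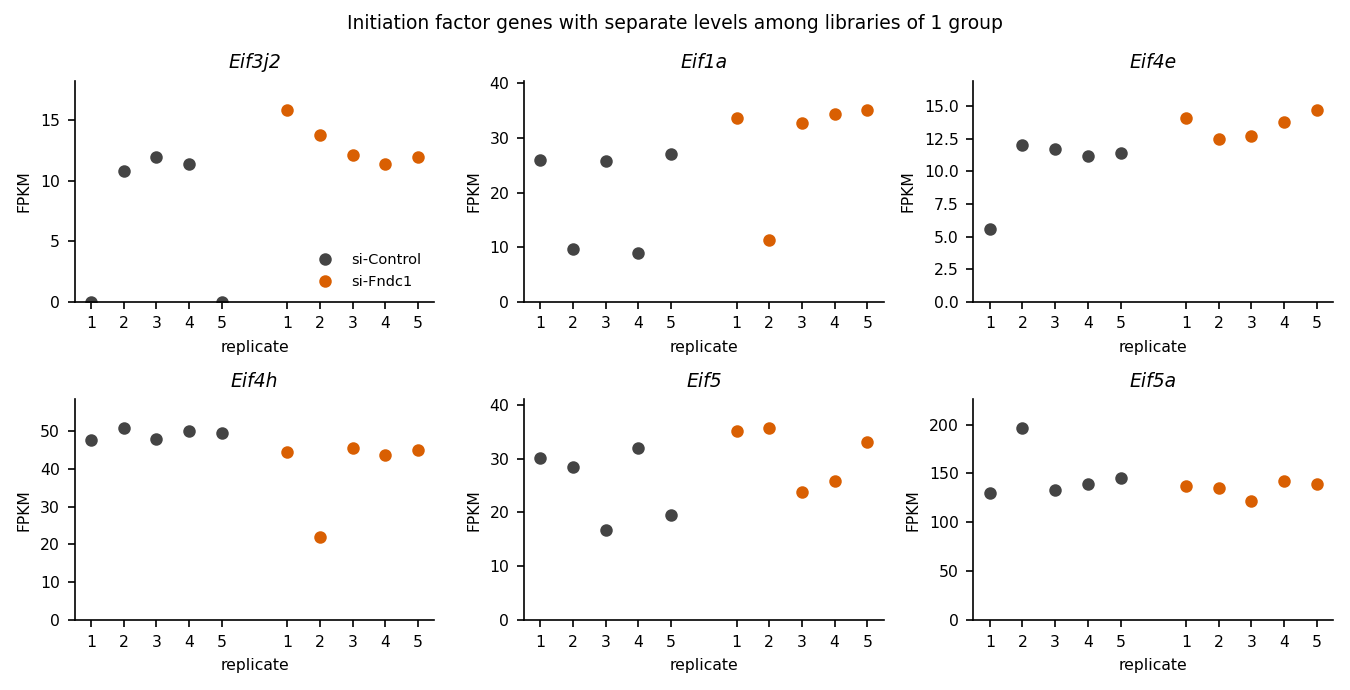
Level in FPKM (linear axis from 0) of 6 initiation factor genes in each library; si-Control grey, si-Fndc1 orange. *Eif3j2* is at 0 in 2 si-Control libraries, *Eif1a* and *Eif5* fall into high and low libraries in both groups, and 1 library stands apart for *Eif4e*, *Eif4h* and *Eif5a*.

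The libraries that stood apart were not the same for every gene: si-Control 1 for *Eif4e*, si-Control 1 and 5 for *Eif3j2*, si-Control 2 and 4 and si-Fndc1 2 for *Eif1a*, si-Fndc1 2 for *Eif4h*, si-Control 2 for *Eif5a*. Some recurred, as si-Control 1, si-Control 2 and si-Fndc1 2 each stood apart for more than 1 of these genes. Such libraries were seen in genes with high counts (2836 for *Eif4e* in si-Control 1 against 5102 to 5735 in the other si-Control libraries), a gap far larger than counting error.

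The remaining genes under the filter were 6 of the *Eif1ad* copies (at most 39 counts in a library) and *Eif4a3l1* and *Eif4a3l2*, copies of *Eif4a3* (at most 18 counts). With *Eif2s3y*, *Eif4e1b* and *Eif4ebp3* they make up the 11 genes not tested.

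The fold changes of the initiation factor genes went with the base composition of their transcripts. GC content of the longest coding transcript was known for 50 of the tested genes. Its median was 43.3% for those called higher and 53.9% for those called lower, beside 45.1% and 55.5% for all genes called higher and lower. Across the 50 genes, Spearman's rho between GC content and log2 fold change was -0.71, and across all 11185 genes with both values it was -0.52; genes are not independent replicates and share the 10 libraries, so no p is given.

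When the fit carried an offset for GC content and length, 14 of the 50 genes were called, 9 higher and 5 lower (28%, beside 22.5% of all genes in that fit), in place of 17 and 10 without it (54%, beside 37.9%). All 14 kept their direction. The 9 higher were *Eif1* (log2 fold change 0.64 with the offset), *Eif3l* (0.34), *Eif4a1* (0.27), *Eif3j1* (0.23), *Eif3f* (0.23), *Eif4g2* (0.22), *Eif4e2* (0.21), *Eif2a* (0.15) and *Eif2s1* (0.10). The 5 lower were *Eif3h* (-0.26), *Eif3k* (-0.18), *Eif4b* (-0.17), *Eif5b* (-0.15) and *Eif4g1* (-0.10). The 13 calls lost were those of *Eif1ad7*, *Eif1ad8*, *Eif1ax*, *Eif1b*, *Eif2s3x*, *Eif3e*, *Eif3m* and *Eif4a2* among the higher and *Eif2d*, *Eif3b*, *Eif4ebp2*, *Eif4g3* and *Eif6* among the lower. In the fit of these genes without the offset *Eif2s3x* was called and *Eif3d* was not. Of the genes called without the offset in either fit, *Eif3d* (0.05), *Eif4ebp2* (0.00) and *Eif2s3x* (-0.03) changed sign with it. *Eif1ad10* and *Eif4e3* had no GC value. Whether base composition accounts for the calls lost was not tested.

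**Figure D5:**
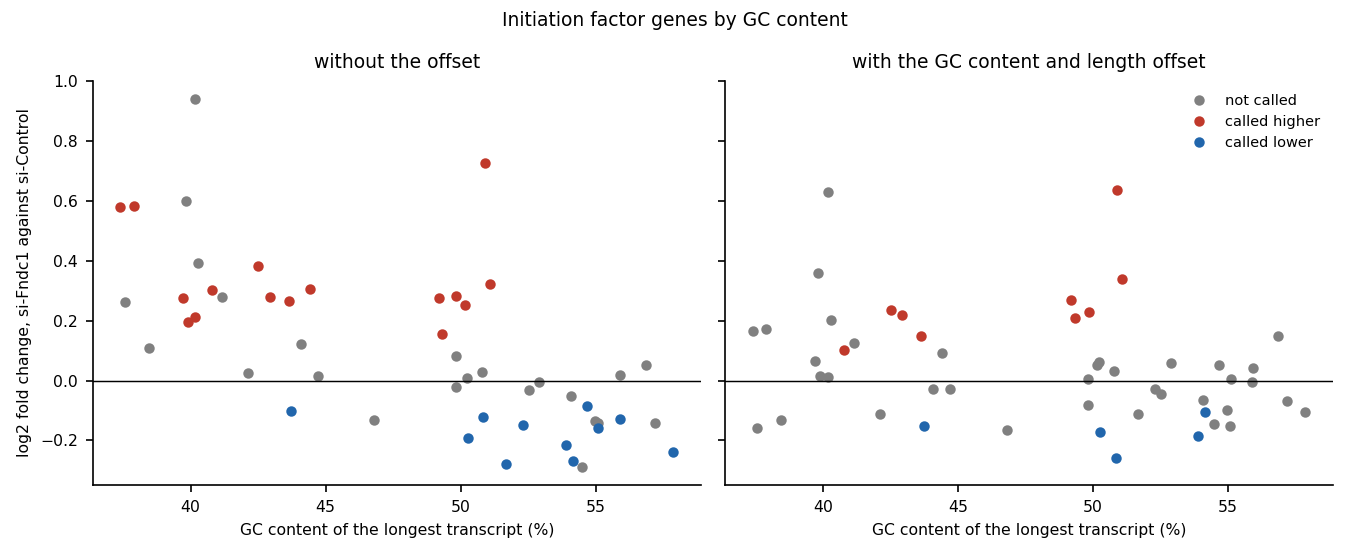
Log2 fold change against GC content of the longest coding transcript (%) for 50 initiation factor genes, without (left) and with (right) an offset for GC content and length, coloured by the edgeR call; the left panel is the fit over all tested genes. Without the offset the genes called higher sit at lower GC content (median 43.3%) than those called lower (median 53.9%), and 14 of the 27 calls remain with it.

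Over all fits run, 7 of the 29 calls kept both their direction and their side of the threshold: *Eif1*, *Eif3f*, *Eif3l*, *Eif4a1* and *Eif4g2* among those that rose, and *Eif3k* and *Eif4b* among those that fell. Most of the 29 genes entered 20 fits, but *Eif1ad8* and *Eif2d* entered 19, *Eif1ad10* 17 and *Eif4e3* 16. How many of all called genes kept their calls in the same way is not given here.

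Promoters were looked at because these genes moved in both directions within the same complexes. RefSeq (GRCm38.p6) gave a promoter, 250 bases before to 50 after the annotated start, for 40 of the 69 genes. The E box CACGTG has the same letters on both strands and is the known binding site of MYC with MAX, of USF factors and of TFEB. It was found in 10 of the 40 (25%) and in 12.0% of the 9225 tested genes with a promoter. A gene was counted if any of its promoters held the box. By single promoter, it was in 12 of the 52 promoters of these genes (23.1%) and in 7.15% of all 32851 promoters of the table. Those 32851 also include promoters of genes that were not tested, so this background is unlike the 12.0% of tested genes. The box was present in 3 of 12 genes called higher (*Eif1b*, *Eif3f* and *Eif4a1*), 2 of 9 called lower (*Eif3k* and *Eif4g1*) and 5 of 17 not called. The box thus stood in genes that moved either way. The windows of the 5 called genes are printed to show this, each 5′ to 3′ on the gene's strand with the box in capitals.
*Eif4a1* (higher; chr11:69672595-69672624, minus strand): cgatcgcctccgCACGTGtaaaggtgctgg
*Eif3f* (higher; chr7:108934335-108934364, plus strand): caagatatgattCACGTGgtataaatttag
*Eif1b* (higher; chr9:120492570-120492599, plus strand): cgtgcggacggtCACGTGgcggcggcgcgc
*Eif3k* (lower; chr7:28981915-28981944, minus strand): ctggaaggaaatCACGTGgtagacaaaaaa
*Eif4g1*, first box (lower; chr16:20672661-20672690, plus strand): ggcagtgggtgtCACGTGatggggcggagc
*Eif4g1*, second box (lower; chr16:20672730-20672759, plus strand): ctctgcgccggtCACGTGgggcgctggctg

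The second feature was a pyrimidine tract at the start of transcription, known from mRNAs of the translation machinery that mTOR and LARP1 regulate. A run of at least 5 bases of C or T beginning with C, within 5 bases of the annotated start on the gene's strand, was found in 11 of the 40 genes (27.5%), close to the 23.8% of tested genes with a promoter. It was present in 2 of 12 genes called higher (*Eif3f* and *Eif3l*), 2 of 9 called lower (*Eif3b* and *Eif4g1*) and 5 of 17 not called. The 11 also include *Eif2s3y* and *Eif4a3l1*, which were not tested. The tract thus stood in eIF3 genes that moved either way. The 2 genes called higher are shown with the tract in capitals.
*Eif3f* (higher; chr7:108934404-108934433, plus strand): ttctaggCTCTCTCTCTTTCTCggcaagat
*Eif3l* (higher; chr15:79075217-79075246, plus strand): tcttcttccgCTCTCTCCCacgggcttctg
A match is a description of these letters in this window and no evidence of binding or of regulation.

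Genes that act on the initiation factors were given by lists. Among all 70 other translation genes, 69 were tested, of which 14 rose (20.3%, beside 17.3% of all tested genes) and 13 fell (18.8%, beside 17.2%), shares near those of all genes. The smaller lists are to be read against the same 17.3% and 17.2%; they were not tested as sets. The 4 eIF2 kinase genes, which slow translation by phosphorylating the *Eif2s1* product, gave 0 calls in edgeR, DESeq2 and limma and 0 with an unadjusted p under 0.05, with log2 fold changes from -0.03 to 0.12. Of 12 genes of the integrated stress response, which those kinases set off, 1 rose (*Asns*, asparagine synthetase, log2 fold change 0.29, edgeR adjusted p = 0.0256) and 3 fell, among them *Atf5* (-0.18, edgeR adjusted p = 0.0076) and *Trib3* (-0.40, edgeR adjusted p = 0.0366). With the offset for GC content and length these 3 calls were lost, with a log2 fold change of -0.31 for *Trib3*, 0.18 for *Asns* and -0.03 for *Atf5*. *Nupr1*, not called by edgeR without the offset (log2 fold change 0.32), was called higher with it (0.37, edgeR adjusted p = 0.0386). The *Asns* call was also lost without si-Control 3, si-Fndc1 1 or si-Fndc1 4 (adjusted p of at most 0.0604), and the *Trib3* call without any 1 library except si-Control 5 or si-Fndc1 4 (adjusted p of at most 0.0808). The transcription factor gene *Atf4* was not called (-0.19, edgeR adjusted p = 0.16).

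Among regulators of eIF4E and eIF4F, 7 of 15 tested genes fell (46.7%, beside 17.2% of all tested genes) and 1 rose (6.67%, beside 17.3%). *Larp1*, a cap- and tract-binding repressor under mTOR, went from 19.5 ± 1.11 to 14.4 ± 0.363 FPKM (SD over n = 5; log2 fold change -0.43, SE 0.04, edgeR adjusted p = 3.73e-05). *Mknk2*, a kinase of eIF4E, went from 60.9 ± 1.75 to 46.8 ± 2.14 FPKM (log2 fold change -0.37, SE 0.04, edgeR adjusted p = 5.35e-05). *Gigyf1*, a partner of the *Eif4e2* product, went from 8.60 ± 0.526 to 6.46 ± 0.317 FPKM (log2 fold change -0.41, SE 0.05, edgeR adjusted p = 0.000208). With the offset *Larp1* (-0.29), *Mknk2* (-0.16) and *Gigyf1* (-0.16) were still called lower, *Rptor*, an mTOR partner, turned from -0.18 to 0.14 and was called higher (edgeR adjusted p = 0.0194), and *Mtor* (-0.03), *Rps6kb2* (-0.09), *Mknk1* (-0.12) and the 1 gene that rose, *Rps6kb1* (0.06), lost their calls. *Pdcd4* (-0.24, edgeR adjusted p = 0.000681) and *Cyfip1* (0.18, edgeR adjusted p = 0.00097) were not called without the offset. With it *Pdcd4* was called lower and *Cyfip1* higher. For *Larp1*, *Mknk2* and *Gigyf1*, even the highest library after knockdown was under the lowest control.

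Of helicases and scanning factors outside the named eIF genes, 7 of 14 rose (50%, beside 17.3% of all tested genes) and 1 fell (7.14%, beside 17.2%). *Mcts1*, whose product works with DENR in reinitiation, went from 12.9 ± 0.561 to 19.1 ± 0.640 FPKM (log2 fold change 0.58, SE 0.05, edgeR adjusted p = 1.99e-05), and *Impact*, an inhibitor of GCN2 activation, from 15.4 ± 0.547 to 19.0 ± 0.278 FPKM (0.31, SE 0.03, edgeR adjusted p = 5.02e-05). *Gcn1*, the ribosome-bound activator of the kinase GCN2, fell from 7.52 ± 0.262 to 5.45 ± 0.304 FPKM (log2 fold change -0.46, SE 0.04, edgeR adjusted p = 4.36e-05), a call lost with the offset for GC content and length (-0.04). With it *Mcts1* (0.18) and *Impact* (0.12) were still called, at smaller values. Of the other genes that rose, *Dhx9* (0.25), *Bzw1* (0.15) and *Bzw2* (0.20) were still called with the offset. *Ddx3x* (0.05) and *Denr* (-0.02) lost their calls, and *Denr* changed sign.

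In elongation, 1 of 8 tested genes rose (*Eef1b2*, 0.20, edgeR adjusted p = 0.000841) and 1 fell: *Eef2*, the translocase, went from 1169.8 ± 27.9 to 896 ± 22.3 FPKM (log2 fold change -0.38, SE 0.03, edgeR adjusted p = 1.81e-05). The muscle form of eEF1A, *Eef1a2*, was listed at 0 counts in every library. In termination and recycling, 2 of 6 rose (*Etf1*, 0.31, edgeR adjusted p = 9.12e-05, and *Abce1*, 0.24, edgeR adjusted p = 0.000368) and *Gspt1* fell (-0.10, edgeR adjusted p = 0.0207). Of 6 poly(A)-binding genes and their partners, 2 rose (*Paip2b*, 0.20, edgeR adjusted p = 0.00111, and *Paip1*, 0.26, edgeR adjusted p = 0.011). The 2 enzymes that hypusinate eIF5A and the 2 mitochondrial initiation factor genes gave 0 calls in edgeR, DESeq2 and limma and 0 with an unadjusted p under 0.05. The calls of *Eef1b2*, *Abce1* and *Paip1* were lost with the offset for GC content and length (log2 fold changes 0.03, 0.05 and 0.01), and those of *Eef2* (-0.23), *Etf1* (0.16), *Paip2b* (0.16) and *Gspt1* (-0.28) were kept with it. The *Gspt1* call was lost without si-Fndc1 replicate 3 (edgeR adjusted p = 0.0526). Other genes were called only with the offset: *Eef1d* (0.29, edgeR adjusted p = 0.000803) and *Pabpn1* (0.19, edgeR adjusted p = 0.0408) higher, and *Eef1a1* (-0.11, edgeR adjusted p = 0.0215) lower. These lists too are to be read beside 17.3% higher and 17.2% lower among all tested genes.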

How the data were processed

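C2C12 libraries of 2 groups, si-Control and si-Fndc1 (5 each), were compared. The authors deposited, in 1 table, gene counts and FPKM for each library. The submitters' processing notes name cutadapt 1.9, FastQC and GRCm39, while the paper's methods name TopHat, mm10, htseq-count and DESeq2 and the series description names STAR and mm9; gene coordinates in the table are taken as GRCm39. Strand-specific counting is not stated in the sources used here, so reads of overlapping and antisense genes, and of near-identical copies, may be mixed. The 13548 genes whose mean reached 0.5 FPKM were tested on the deposited counts with edgeR 4.0.16 (TMM, quasi-likelihood, group only), two-sided, with Benjamini-Hochberg adjustment over all of them and a threshold of 0.05. FPKM from the authors was used for levels, shares and overlap, without a test; counts of 0 are listed at 0.0001 FPKM. Within each group no library was a duplicate of another. Over 20 pairs, the variance between their counts was 41.5 to 77.5 times that of counting error (chi-square per degree of freedom). Pairs across the groups were not compared in this way. The fit was tested on simulated data.

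Alternatives were DESeq2 1.42.0, limma 3.58.1 on log2(FPKM + 1) and log2(FPKM + 0.1), RLE size factors, no filter, a mean FPKM of at least 5, a replicate block, an offset for GC content and length (11185 genes, 82.6% of those tested; GC from longest coding transcripts, lengths from counts over FPKM), both together, and leaving out each library. The fit without the offset on the same genes was added after seeing the data. The genes were those of the naming rule; values in every library were given for the 6 largest rises and 6 largest falls among called genes, the most abundant gene, both main 4E-BP genes, the paralogue pairs and the cap-binding genes, and other lists by counts with at most 3 genes of smallest p. *Eif2s1*, *Eif3f*, *Eif4g2*, *Eif4h*, *Eif1a*, *Eif5*, *Atf4*, *Rptor*, *Mtor*, *Rps6kb1*, *Rps6kb2*, *Mknk1*, *Pdcd4*, *Cyfip1*, *Nupr1*, *Dhx9*, *Bzw1*, *Bzw2*, *Ddx3x*, *Denr*, *Eef1d*, *Pabpn1* and *Eef1a1* were added after their values were seen. The genes, lists and rules were chosen with earlier results of these data known. Where a listed symbol had more than 1 row, the row with the most counts was used.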

Additional observations from a re-analysis of the deposited data

Results flagged for a closer look

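For 10 of 116 sets of 5 libraries (58 genes in 2 groups; 8.62%), 1 library lay so far from its 4 neighbours that its gap, divided by the range of the set, passed Dixon's critical value for 5 values; chance alone gives about 1 in 20. In si-Control these were *Eif4e* in replicate 1 (5.58 FPKM, the others 11.2 to 12.0), *Eif4a2* in replicate 1 (27.9, the others 20.9 to 22.8), *Eif5a* in replicate 2 (196.5, the others 129.7 to 146), *Eif4ebp2* in replicate 2 (23.8, the others 25.9 to 26.5) and *Eif3j1* in replicate 3 (6.69, the others 7.87 to 8.23). In si-Fndc1 they were *Eif4h* in replicate 2 (21.9 FPKM, the others 43.6 to 45.4), *Eif1a* in replicate 2 (11.3, the others 32.7 to 35.2), *Eif2b1* in replicate 3 (16.0, the others 14.9 to 15.2), *Eif4enif1* in replicate 4 (6.20, the others 7.01 to 7.27) and *Eif3f* in replicate 5 (45.4, the others 47.9 to 48.8). The size of the gap was unequal: *Eif4e*, *Eif4h* and *Eif1a* were at a fraction of the other libraries, whereas *Eif2b1* and *Eif3f* differed by a few percent. The cause was not tested.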

How the results depend on the processing

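Counts of 18 genes higher and 11 lower stayed within 1.5 times under DESeq2, limma at both pseudocounts, RLE size factors, the filter at 5 FPKM and, chosen after seeing the data, the fit without the offset on the genes with GC content and length. Over these the median of 0.08 went as low as 0.05. The SD between replicates was 0.057, which does not measure a spread between fits of the same libraries. The offset for GC content and length could be fitted for 50 of the tested initiation factor genes. With it 9 rose and 5 fell with a median of 0.013, and 2517 genes were called in all. In the fit over all tested genes those 50 had a median of 0.04, so the medians of 0.08 and 0.013 are of unlike sets. With the offset 7 other translation genes fell in place of 13, among them *Pdcd4* and *Eef1a1*, which were not called without the offset. *Eif3d* (0.052) and *Eif4ebp2* (0.0046) changed sign. With the offset and the replicate block together, 6 rose and 4 fell with a median of 0.017, 1655 genes were called, 8 other translation genes rose and 5 fell, and *Eif3d* (0.052) and *Eif4ebp2* (0.0049) were again reversed. With no filter the median was 0.14 and 8 other translation genes fell.

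Libraries of the same number shared only the number: their deviations correlated between -0.06 and 0.06, and 1 of 5 si-Control libraries was closest to its own number. With the replicate block 15 genes rose and 7 fell, and 3572 of all genes were called in place of 4663. Leaving out each library in turn gave 14 to 19 genes higher, 8 to 11 lower, a median of 0.06 to 0.10, 4000 to 4627 calls over all genes, 11 to 17 other translation genes higher and 9 to 13 lower, and -0.45 to -0.36 for *Fndc1*. Of the single initiation factor genes, 46 of 580 fits without 1 library lost a call, 9 gained one, and 0 changed sign with a call; with the replicate block 7 of 58 genes lost their call.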
